A study of Mus musculus with 2 samples.

Results

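The clock output genes described here are 9: the transcription factor genes Dbp, Tef, Hlf, Nfil3, Bhlhe40, Bhlhe41 and Rora, the corepressor gene Ciart, and Usp2, a ubiquitin-specific protease gene. They were chosen by name from the array's probes annotated to exactly 1 gene symbol, and 9 of 9 were found among 19938 such genes. For a gene with several probes (Affymetrix probe sets), the one with the highest mean over both arrays was taken. The probe sets are 10553092 for Dbp, 10425601 for Tef, 10389786 for Hlf, 10409278 for Nfil3, 10500272 for Ciart, 10584634 for Usp2, 10540472 for Bhlhe40, 10549276 for Bhlhe41 and 10586700 for Rora. The liver samples are a pool labelled wild-type and a pool labelled FHL2-/-, that is, without a LIM-domain cofactor of transcription factors. Each pool joined RNA from 3 male mice of 10 to 11 weeks on the background Hybrid Black Swiss/129-SV/J and was read on 1 array, so neither group has a replicate and no difference below has a replicate check or a p-value. The deposited values are on a log2 scale, so a difference of 1 is a factor of 2, and every difference is that of the FHL2-/- pool minus the wild-type pool. The time of day at which the livers were taken is not given in the sources used here, so time of day and genotype cannot be told apart.

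The mammalian clock is a feedback loop in which CLOCK and BMAL1 (gene Arntl) activate genes through a DNA element called the E-box, among them the Per and Cry genes whose proteins then repress them. Its output is passed on by transcription factors that are themselves rhythmic. DBP, TEF and HLF, the PAR bZIP proteins, activate genes through the D-box, and NFIL3 represses through the same element. CIART, BHLHE40 and BHLHE41 repress E-box transcription, and RORA activates Arntl and other genes through ROR elements, where the REV-ERB proteins repress. USP2 removes ubiquitin from its substrates, and its transcripts are rhythmic in many tissues. In liver the PAR bZIP proteins are known for their control of drug and lipid metabolism genes.

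The 1 probe of Fhl2 read 5.30 in wild-type liver and 5.33 in the FHL2-/- pool, which is named the knockout-labelled pool from here on. Both values lie below 5.44, the level filter used below, so the probe was already dim in wild-type liver. Which part of the gene was deleted is also not stated in the labels, so this probe checks nothing. The array medians were 5.76 and 5.71. Hepatocyte markers (8 of 8 measured) lay between 10.7 and 13.7 in the wild-type pool and between 10.8 and 13.7 in the knockout-labelled pool, with a log2 of their summed level of 15.8 in both. Of 6 Kupffer cell markers, 6 were lower in the knockout-labelled pool (median difference -0.18), and the log2 of their summed level was 11.0 against 10.8. Among other cell types, of 5 endothelium markers 4 were higher and 1 lower (median 0.13). Of 4 bile duct markers 3 were higher and 1 lower (0.15), and of 5 stellate cell markers 2 were higher and 3 lower (-0.04). Medians were -0.05 for lymphocyte, -0.04 for neutrophil, 0.04 for muscle, 0.06 for exocrine pancreas and -0.17 for fat cell markers. The 1 red cell marker measured differed by 0.29. Over all 19938 genes 53.6% were higher, and with so few markers per list no shift of these other cell types is claimed. The part of these cells in the results below was not tested. In RNA of a whole liver lobe, fewer cells of a type and less RNA per cell cannot be told apart.

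Dbp and both Bhlhe genes were higher in the knockout-labelled pool by 1.53-fold to 1.69-fold, and Ciart was higher by 1.32-fold. Tef was higher by 1.13-fold. Hlf, Nfil3, Rora and Usp2 were lower, by 1.08-fold to 1.15-fold. A gene was counted only when its mean over both arrays reached 5.44, the 40th percentile of all probes with 1 symbol. Of the 9 genes 8 passed this level filter, and Bhlhe41 did not. Of these 8, 2 (Dbp and Bhlhe40) were at least 1.5-fold higher and 0 at least 1.5-fold lower. Over all 11924 genes past the filter the shares were 0.621% and 0.335%. At 1.2-fold 3 of the 8 were higher and 0 lower, against 8.66% and 6.16% of all genes. Without the level filter 3 of the 9 were at least 1.5-fold higher and 0 lower, against 0.767% and 0.667% of all 19938 genes. The median difference of the 8 genes was 0.03, beside 0.04 for all genes past the filter, and 4 of the 8 were above 0, beside 59.5% of all genes past the filter. That share is the background for each count above 0 given for a list. These genes were chosen with earlier results of these arrays known, so the counts describe them and support no statement about the clock as a group.

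**Figure D1:**
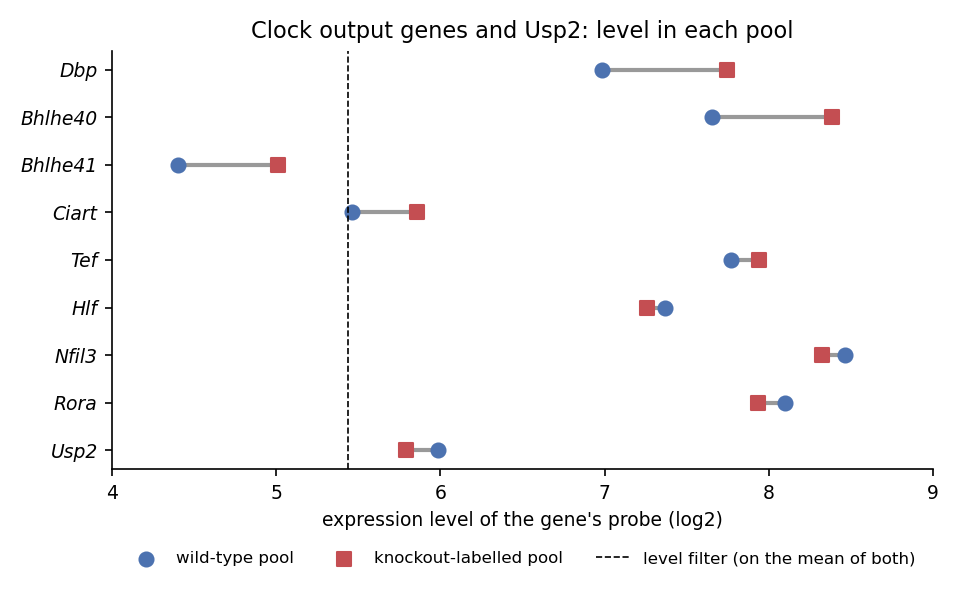
Level of each gene's probe on the log2 scale in the wild-type pool (circles) and the knockout-labelled pool (squares), 1 array each, with genes ordered by their difference and the level filter at 5.44 as a dashed line. Dbp, Bhlhe40, Bhlhe41, Ciart and Tef lie to the right in the knockout-labelled pool and Hlf, Nfil3, Rora and Usp2 to the left; levels of different probes are not comparable with each other.

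The size of probe error can be read from genes with several probes. Over 660 genes with 1809 probes at or above the filter level, the differences of probes for 1 gene varied by an SD of 0.143, and over 226 genes with 745 probes below it by an SD of 0.237. It measures disagreement between probes of the same arrays and holds nothing of the spread between mice or between hybridisations. Of all probes at or above the filter level, 40.2% differed between the pools by more than 0.143, so a gene past that SD is not unusual here.

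Among the D-box activators, Dbp read 6.99 in wild-type liver and 7.75 in the knockout-labelled pool, which makes 0.76 or 1.69-fold. Its product is named for its site in the albumin promoter. Ordered from the most positive difference down, Dbp stood at rank 29 of the 11924 genes past the filter. Tef, the PAR bZIP gene first known from thyrotrophs of the pituitary, was at 7.77 and 7.94, a difference of 0.17 at rank 2371. Hlf, the PAR bZIP gene first known from a fusion in leukemia, was at 7.37 and 7.26, a difference of -0.11. The paralogs therefore did not share a direction, and Hlf differed by less than the SD between probes. Tef passed that SD by little.

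Nfil3, the D-box repressor, read 8.46 in wild-type liver and 8.33 in knockout-labelled liver, which makes -0.14. This is lower by 1.10-fold and less than the SD between probes. Among all genes past the filter, 15.8% had a more negative difference. The repressor was thus slightly lower and Dbp higher in the same pool, and the difference of Nfil3 has the size of probe error.

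Ciart, Bhlhe40 and Bhlhe41, which encode repressors at the E-box, were higher in the knockout-labelled pool. Bhlhe40, also called Dec1, was at 7.66 and 8.39, a difference of 0.73 or 1.66-fold, at rank 34 from the highest. Its paralog Bhlhe41, also called Dec2, was dim, at 4.40 and 5.01. Both of its values lie below the filter level, so its 1.53-fold difference (0.61) is uncertain in size, although it exceeds the SD of 0.237 between probes below the filter. Ciart, also called Chrono, was at 5.46 and 5.86, a difference of 0.40 at rank 288. It had a second probe, at 5.03 and 5.39, below the filter, with a difference of 0.37. Ciart was the 1 gene here with more than 1 probe, and both probes differed in the same direction and by nearly the same amount. The wild-type value of the chosen probe lies just above the filter level.

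Rora, the nuclear receptor gene, read 8.10 in wild-type liver and 7.93 in knockout-labelled liver, which makes -0.16 or 1.12-fold lower. Of all genes past the filter, 12.8% had a more negative difference. Usp2 was at 5.99 and 5.79, a difference of -0.20 or 1.15-fold lower, with 9.73% of genes more negative. Both passed the SD between probes by little, and neither reached 1.2-fold.

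**Figure D2:**
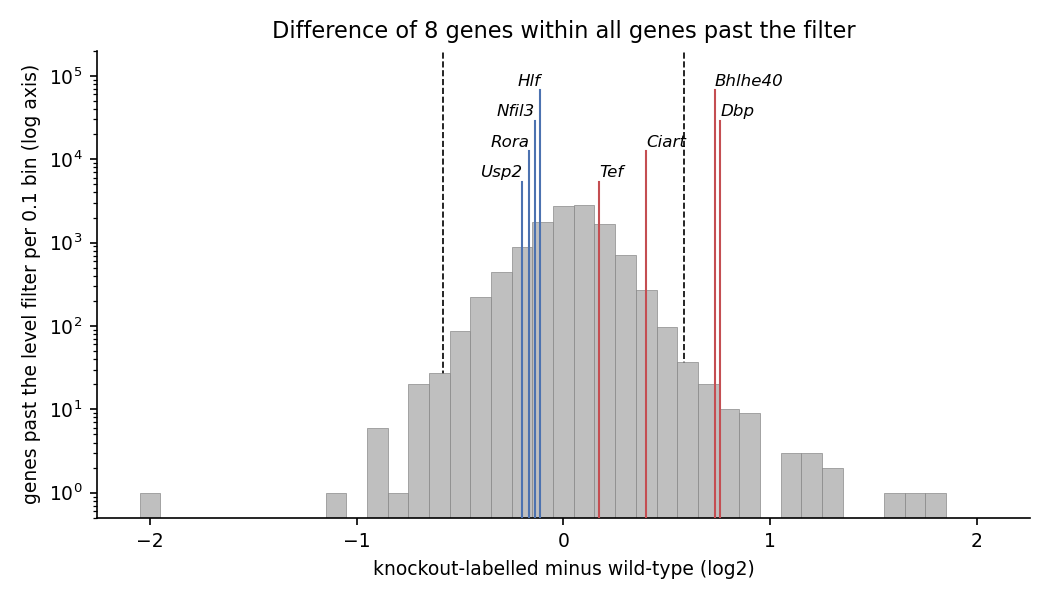
Number of genes per 0.1 of log2 difference (knockout-labelled minus wild-type) for the 11924 genes past the level filter, on a log axis, with the 8 clock output genes past the filter as lines and 1.5-fold in each direction dashed. Dbp at 0.76 and Bhlhe40 at 0.73 lie beyond 1.5-fold, Ciart at 0.40 below it, and Tef, Hlf, Nfil3, Rora and Usp2 within the bulk of genes.

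The differences held their direction under each of the 3 other treatments of the values, but these are weak checks. Taking the mean over probes leaves the 8 genes with 1 probe unchanged and can move Ciart only. Shifting both arrays to a common median added 0.04 to each difference. Removing the trend of differences on level by lowess gave Dbp 0.70 and Bhlhe40 0.67, and the Ciart difference ran from 0.38 with the mean of its probes to 0.44. Hlf ran from -0.17 to -0.07, Tef from 0.11 to 0.21, Nfil3 from -0.19 to -0.10 and Rora from -0.22 to -0.12, so their place relative to the SD between probes depends on the scaling.

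**Figure D3:**
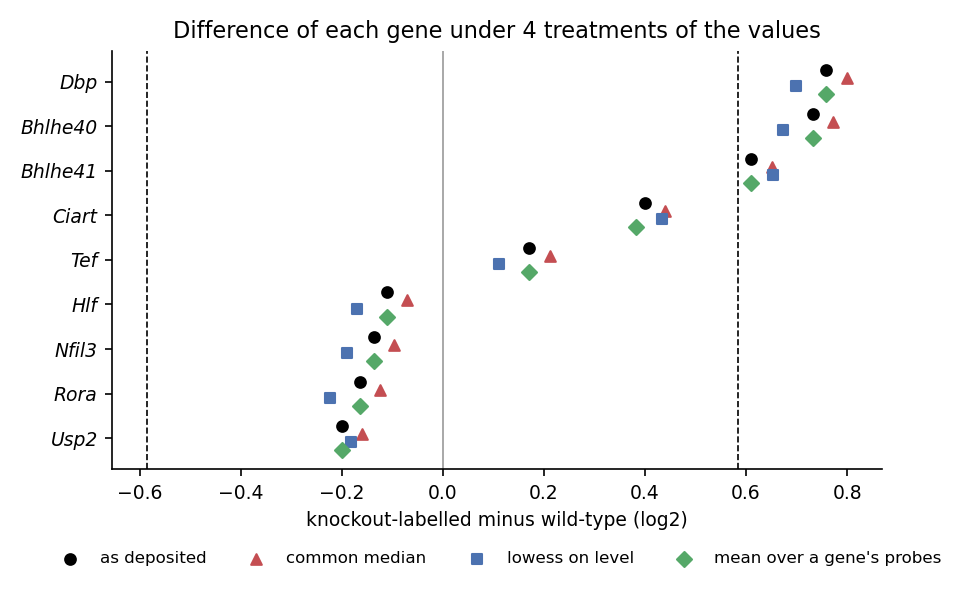
Difference of each gene (log2, knockout-labelled minus wild-type) as deposited, after a shift to a common median, after removal of the lowess trend on level, and as the mean over the gene's probes, with 1.5-fold dashed. Each of the 9 genes stays on its side of 0 under these 4 treatments, and Dbp, Bhlhe40 and Bhlhe41 stay beyond 1.5-fold. The mean over probes can move Ciart only, and the common median adds the same 0.04 to every gene.

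Promoter sequences were read for the letters of clock elements close to each gene's start. RefSeq windows (GRCm38.p6) of 250 bases before to 50 bases after an annotated start were given for 8 of the 9 genes in 9 windows, as Tef has windows at separate starts. Letters searched on both strands were CACGTG for the E-box, TTATGTAA and TTACGTAA for the D-box, and TAGGTCA and TGGGTCA for the ROR element. No motif overlapped another in these windows. An E-box was found in 3 of the 8 genes (Ciart, Bhlhe41 and Tef), in 8.09% of all 27025 genes in the table and in 7.15% of all 32851 windows. A ROR element was found in 1 of the 8 (Nfil3), in 7.35% of all genes and in 6.45% of all windows. A D-box was found in 0 of the 8, in 1.23% of all genes and in 1.06% of all windows. For Dbp, Hlf, Rora and Usp2 none of these letters is in the window. Elements with other letters or outside the windows were not searched, and a match does not show that a factor binds there. At least 3 E-boxes stood in 29 windows (0.0883%), that of Ciart among them.

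The stretches with a match are shown because their letters match elements of the core loop. They are written 5′ to 3′ on the gene's strand and end before the start, with E-box or ROR letters in capitals. The Ciart stretch (chr3:95882247-95882364, minus strand) holds E-boxes that begin 116, 58 and 44 bases before the start. The Bhlhe41 stretch (chr6:145865548-145865593, minus strand) has its E-box 153 bases before. The Tef stretches (chr15:81802526-81802571 and chr15:81811256-81811301, plus strand) have theirs 127 and 138 bases before the first and the second start. The Nfil3 stretch (chr13:52981040-52981071, minus strand) holds a ROR element, on the opposite strand, 12 bases before the start.
Ciart: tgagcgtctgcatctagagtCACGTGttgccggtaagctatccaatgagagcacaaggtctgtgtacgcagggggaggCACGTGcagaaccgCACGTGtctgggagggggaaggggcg
Bhlhe41: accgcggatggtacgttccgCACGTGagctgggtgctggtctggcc
Tef, first start: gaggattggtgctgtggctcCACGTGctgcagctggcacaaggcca
Tef, second start: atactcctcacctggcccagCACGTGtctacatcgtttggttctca
Nfil3: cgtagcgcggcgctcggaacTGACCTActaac

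Set beside the expression values, the 3 genes with an E-box in this window differed by 0.17 (Tef), 0.40 (Ciart) and 0.61 (Bhlhe41), and Nfil3 with its ROR element by -0.14. Dbp, with the largest difference at 0.76, has none of the letters in its window. Over all genes past the filter with a window, the 1117 genes holding an E-box had a median difference of 0.05 and the 8439 without it 0.04. At least 1.5-fold higher were 0.358% of the holders and 0.628% of the others. The 86 genes with a D-box had a median of 0.05 and 0 of them reached 1.5-fold in either direction. Among genes without it 0.602% were higher and 0.348% lower, so 0 of 86 is near that share. The 632 genes with a ROR element had a median of 0.04. Genes with and without these letters therefore lay close together in this comparison.

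**Figure D4:**
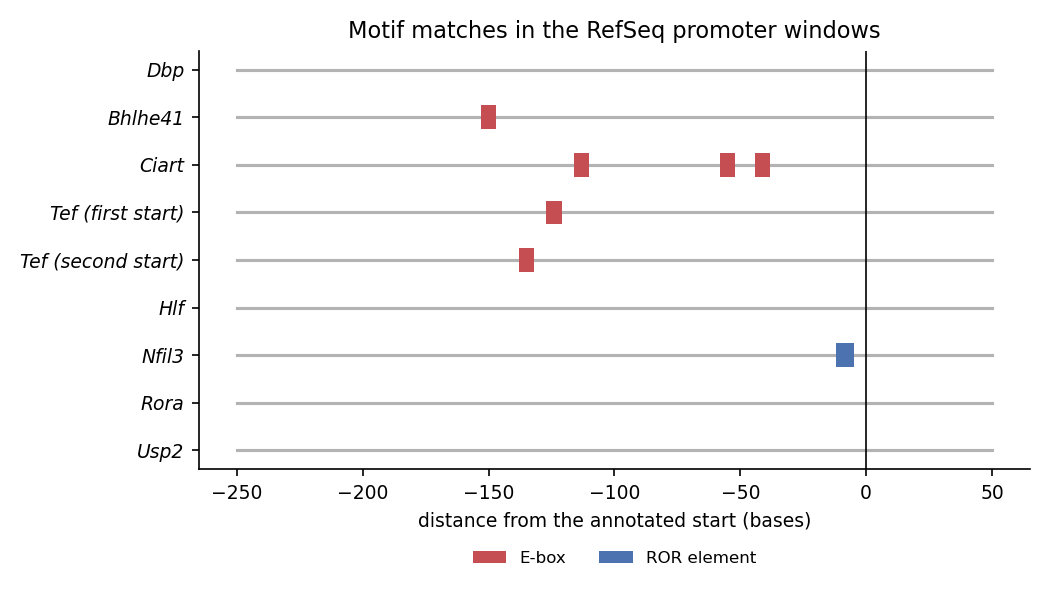
Position of E-box (red) and ROR element (blue) letters in the RefSeq promoter windows of 8 genes, as distance in bases from the annotated start, with genes ordered by their difference between the pools. Ciart has 3 E-boxes, Bhlhe41 and each Tef start have 1, Nfil3 has a ROR element, and the windows of Dbp, Hlf, Rora and Usp2 hold none.

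The core loop that feeds these genes was described from a list of 14 symbols, of which 13 were measured and 11 passed the filter (Npas2 is not analysed here). Of the 11, 6 were above 0 and 5 below, none reached 1.5-fold, and the median was 0.13. The largest positive differences were those of the repressor gene Per1 (5.44 to 5.86, 0.43), the REV-ERB alpha gene Nr1d1 (9.85 to 10.1, 0.24) and Per3 (5.41 to 5.59, 0.18). The wild-type value of Per1 lies at the filter level and that of Per3 below it, so the size of both differences is uncertain. The most negative were Arntl (8.29 to 7.79, -0.51), the repressor gene Cry1 (7.38 to 6.89, -0.50) and Clock (8.49 to 8.42, -0.07). Within the loop, the 6 genes Per1, Per2, Per3, Cry2, Nr1d1 and Nr1d2 had 5 above 0 and a median of 0.18. Cry2 was at -0.012 and turned to 0.03 after the common median shift. Arntl, Clock and Cry1, the 3 most negative genes named above, were all below 0. Their median of -0.50 is the value of Cry1, and Clock lay within the SD between probes. Both groups of the loop were written with earlier results of these arrays known, so their signs are a description. Of the 9 output genes without the filter, 5 (Dbp, Tef, Ciart, Bhlhe40 and Bhlhe41) were above 0. The other 4 (Hlf, Nfil3, Rora and Usp2) were below 0, with Hlf and Nfil3 within the SD between probes. The 5 of 9 (55.6%) are near the 53.6% above 0 among all 19938 genes, so this count says nothing particular about the output genes.

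Downstream of the PAR bZIP proteins, a list of 11 liver genes known to depend on them had 8 measured and 7 past the filter, with Por, Cyp2a4 and Cyp2a5 not analysed here. All 7 past the filter were above 0, 4 were at least 1.5-fold higher and the median was 0.66, beside 59.5%, 0.621% and 0.04 over all genes past the filter. The list was written with earlier results of these arrays known, and several of its genes had been seen to be high, so this is a description. Alas1, which begins heme synthesis, was at 9.25 and 10.5, a difference of 1.29. The acyl-CoA thioesterases Acot4 (6.12 to 6.99) and Acot2 (6.60 to 7.35) differed by 0.87 and 0.75, and the cytochrome Cyp2b10 (6.25 to 6.91) by 0.66. Cyp7a1, the bile acid enzyme, differed by 0.53, and the receptor genes Ppara and Nr1i3 by 0.20 and 0.18. Acot3, another thioesterase, lay below the filter, with 5.38 in wild-type liver against 4.55, a difference of -0.83. The thioesterases are close paralogs whose transcripts can share probes, so single values are uncertain.

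Genes under ROR elements, where RORA and the REV-ERB proteins act, had 9 of 12 symbols past the filter, 5 above 0 and 4 below, none past 1.5-fold, and a median of 0.08. This list shares Arntl, Clock, Cry1 and Nr1d1 with the core loop. At its ends were the gluconeogenic gene G6pc (11.6 to 12.2, 0.53), Nr1d1 and the sterol regulator gene Insig2 (0.19), and Arntl, Cry1 and the elongase gene Elovl3 (12.1 to 11.8, -0.27). Of its other measured genes, Fgf21, a liver hormone gene, lay below the filter at 5.25 and 4.93. Other rhythmic liver genes had 6 of 8 symbols past the filter with a median of 0.19 and none past 1.5-fold. The gluconeogenic gene Pck1 was at 0.42, the nocturnin gene Noct at 0.30 and the glucocorticoid-induced gene Tsc22d3 at 0.21. The lowest were the lipin gene Lpin1 at 0.16, the mitotic kinase gene Wee1 at -0.0060 and the NAD synthesis gene Nampt at -0.0099, and the latter pair turned positive after the common median shift.

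**Figure D5:**
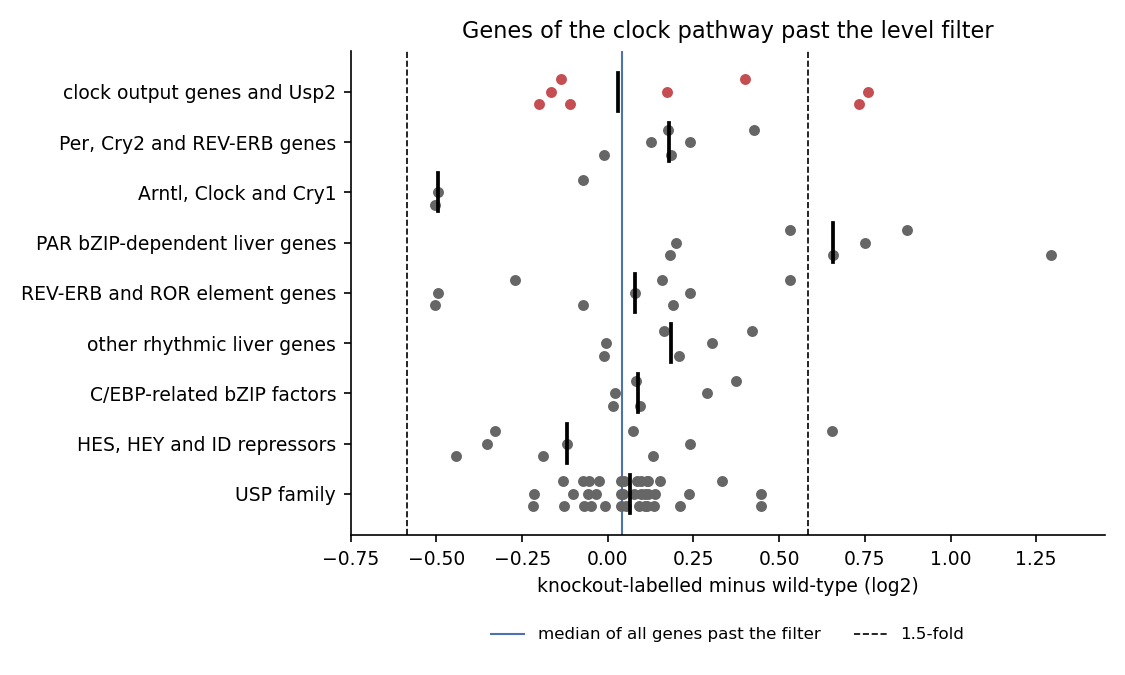
Difference (log2, knockout-labelled minus wild-type) of each gene past the level filter, by list, with the list's median as a black bar, the median of all genes past the filter (0.04) as a blue line and 1.5-fold dashed; some genes stand in more than 1 list, and vertical offsets only separate points. The PAR bZIP-dependent genes have the median farthest to the right (0.66), and the clock output genes with Usp2 spread from -0.20 to 0.76 around 0.03. The 3 genes Arntl, Clock and Cry1 have the median farthest to the left (-0.50), which is the value of Cry1, while Clock lies at -0.07. They are the most negative loop genes past the filter, so that place follows from their choice. The lists were written with earlier results of these arrays known.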

How the data were processed

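Liver RNA (300 ng per pool) of 2 pools of 3 mice was labelled and hybridised to 1 Affymetrix array each, per the labels' protocols. The authors deposited 1 log2 value per probe set and array, running from 1.87 to 14.3. Affymetrix Expression Console 1.0, Partek 6.4 and RMA are listed, without role or order, per the submitters' processing notes. RMA compresses differences of dim transcripts. It usually brings arrays to a common distribution, which the deposited columns do not share exactly, with medians of 5.76 and 5.71. The genome build and program settings were not given in the sources used here.

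Of 28853 probes, 21789 had 1 gene symbol in the platform annotation, 1621 several and 5443 none. The listed genes had 10 probes with 1 symbol and 0 shared with another gene. The difference was taken without further scaling. The members and lists were chosen with earlier results of these data known. Named genes are all members, the 3 highest and 3 lowest past the filter of each list and any past 1.5-fold. Genes nearest to Dbp in level, also set to be named, are left out because levels of different probes are not comparable. Named outside this rule, with values seen, were list genes below the filter and further core clock genes.

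Alternatives were a common median, lowess (span 0.3), the mean over probes, no filter, a filter at the 60th percentile, and folds of 1.2 and 2. The steps were run on simulated data with planted changes of at least 2-fold and noise smaller than the SD between probes. That run does not show how well differences of the members' size are recovered. Calculations used Python 3.11.15, pandas 2.3.3 and statsmodels 0.14.6. The arrays carry no detection call, and their number limits the precision.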

Additional observations from a re-analysis of the deposited data

How the results depend on the processing

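Each member's difference moved by at most 0.060 under the common median shift, lowess and the mean over probes, less than the SD of 0.143 between probes. The common median shift moved every gene by the same 0.04, and the mean over probes could move Ciart only, so this bound says little about single genes. As set, 74 of 11924 genes lay 1.5-fold or more above and 40 below. Without the filter there were 153 and 133, with the filter at the 60th percentile 41 and 14, at 2-fold 11 and 2, and at 1.2-fold 1033 and 734. At 2-fold 0 members were higher. The share of higher genes among those past 1.5-fold was 64.9%, and 75% after the common median shift (90 against 30) and 58.5% after lowess (62 against 44). With the mean over probes Ciart no longer passed the filter, which left 7 members. The core clock median was -0.012 with the filter at the 60th percentile, where 7 genes were counted, and that of the ROR element list 0.0040 without the filter. No paired analysis was possible because each group holds 1 array.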

Other observations

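Relatives of these genes outside the clock were also read. The C/EBP-related bZIP genes, several of which encode factors that bind sites resembling the D-box, had 6 of 6 past the filter, 6 above 0, none past 1.5-fold and a median of 0.09. Cebpb, a factor of the acute phase response, read 8.51 in wild-type and 8.89 in knockout-labelled liver (0.37), and Cebpd at 5.51 and 5.80 (0.29). Cebpg was at 0.09, Cebpe at 0.08, Cebpa, a hepatocyte identity factor, at 0.022 and Ddit3, a stress factor, at 0.014, which turned to -0.018 after lowess.

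The HES, HEY and ID repressor genes, helix-loop-helix relatives of Bhlhe40 and Bhlhe41, had 9 of 12 past the filter, 4 above 0, 5 below and a median of -0.12. Id3, an inhibitor without a DNA-binding region, was at 8.84 and 9.50 (0.65) as the 1 gene past 1.5-fold, followed by Id1 (0.24) and Hes6 (0.13). The Notch target Hes1 was at 7.90 and 7.45 (-0.44), Hes5 at -0.35 and Id4 at -0.33. Hey1, below the filter, was at 5.53 and 4.90 (-0.63), and Hey2, also below it, at 4.45 and 3.91 (-0.54). Helt, below it as well, was higher, at 4.96 and 5.05 (0.09). The direction of Bhlhe40 and Bhlhe41 was thus shared by 4 of the 9 relatives past the filter, although Bhlhe41 itself lay below it.

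Of the ubiquitin-specific proteases other than Usp2, 38 of 52 passed the filter, 25 above 0 and 13 below, with a median of 0.06 and none past 1.5-fold. Over all genes past the filter 59.5% were above 0 and the median was 0.04. The highest were Usp42 (0.45), Usp31 (0.45) and Usp1 (0.33), and the lowest Usp17ld (-0.22), Usp54 (-0.21) and Usp48 (-0.13). Usp2 at -0.20 lay between Usp54 and Usp48. Usp17ld belongs to a cluster of near-identical copies, so its value is uncertain.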
